A study of Mus musculus with 10 samples.

Results

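The 29 genes described here encode the enzymes of glycolysis and their isozymes in cultured mouse testes. They were chosen by name, from hexokinase to lactate dehydrogenase, with the enzymes that make and remove fructose 2,6-bisphosphate, bisphosphoglycerate mutase and the glycerol-3-phosphate dehydrogenases. The count table held 29 of the 29 among 24470 gene entries. Testes came from 5 C57BL/6 embryos at E12.5, named M1 to M5. From each embryo, 1 gonad was cultured for 48 h with 75 µM of a glycogen phosphorylase inhibitor, called GPI below, and the other with the DMSO vehicle. GPI always means the inhibitor, and Gpi1 is the gene of glucose-6-phosphate isomerase. RNA was taken from the whole gonad, freed of the mesonephros after culture, so every library mixes Sertoli, Leydig, germ, endothelial and other cells. Total counts ran from 10203679 to 15590223 in the 5 vehicle libraries and from 11025409 to 15635322 in the 5 GPI libraries.

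Glycolysis splits glucose into pyruvate and yields ATP without oxygen, and lactate dehydrogenase then turns pyruvate into lactate. Glycogen phosphorylase releases glucose units from stored glycogen, and these enter the pathway just after the hexokinase step. Most steps can be run by several isozymes, which differ in their kinetics and in the tissues that use them, and Sertoli cells of the mature testis are known for passing lactate to germ cells.

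Embryo M1 stood apart from the other 4, so calls and fold changes of the tested members are given with and without it. Values of other genes are from all 5 embryos unless stated. Within an embryo, the level with GPI was set against the level with vehicle in the sister gonad, as a log2 ratio of counts scaled to library size with TMM factors (CPM). In M1, 23 of the 24 members with enough counts to be tested were higher with GPI, and their median log2 ratio was 0.45. The same median was -0.30 in M2, -0.64 in M3, -0.53 in M4 and -0.45 in M5, while over all 13941 tested genes it lay between 0.01 and 0.02 in each embryo. A total of 13 members were higher with GPI in M1 and lower with GPI in M2, M3, M4 and M5, a pattern shown by 3.79% of all tested genes. These were Hk1, Gpi1, Pfkl, Pfkp, Pfkfb1, Pfkfb3, Aldoa, Tpi1, Gapdh, Pgk1, Eno1, Pkm and Ldha. Scaling by total counts or by DESeq2 size factors gave the same 13 genes.

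**Figure D1:**
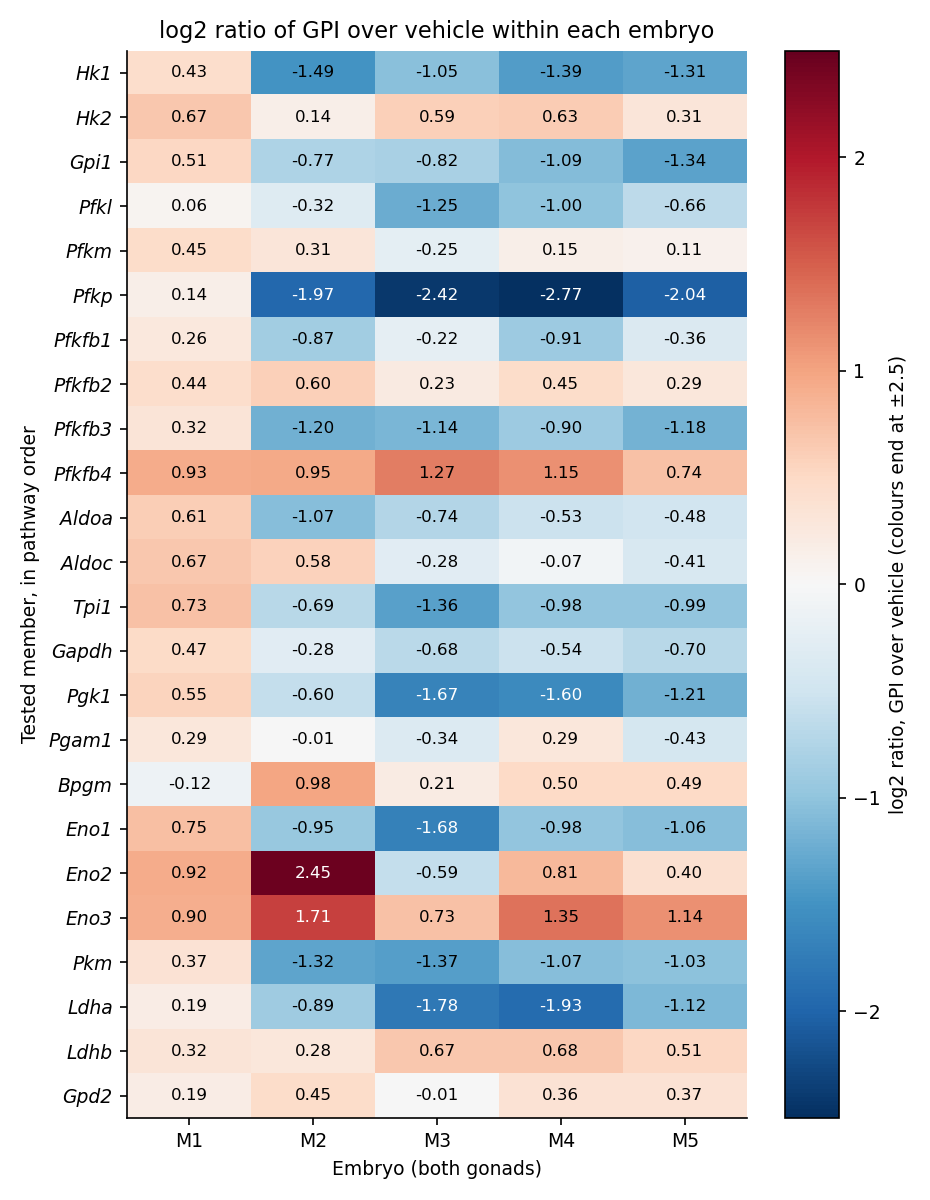
Rows are the 24 tested members in pathway order, columns are the 5 embryos, and each cell gives the log2 ratio of GPI over vehicle between the gonads of 1 embryo (red higher with GPI, blue lower). The M1 column is above 0 for 23 members, and the rows of Hk2, Pfkfb2, Pfkfb4, Eno3 and Ldhb are above 0 in 5 of 5 embryos.

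The question put to the members was whether their transcripts changed when glycogen breakdown was inhibited. With all 5 embryos, 10 of the 24 tested members fell and 5 rose at an FDR of 0.05 in edgeR's quasi-likelihood test, where 11.9% of all tested genes fell and 11.1% rose. Hk1, Gpi1, Pfkl, Pfkp, Pfkfb3, Tpi1, Pgk1, Eno1, Pkm and Ldha fell, and Hk2, Pfkfb2, Pfkfb4, Eno3 and Ldhb rose. The median log2 fold change of the 24 was -0.39, beside 0.02 over all tested genes. Without M1, 12 members fell and 6 rose, beside 12% and 9.98% of all tested genes (1671 and 1391), and the median was -0.60. Aldoa, Gapdh and Bpgm were the members added, and the same 3 were added with all 5 embryos when no filter on low counts was used. Hk2, Pfkfb2, Pfkfb4, Eno3 and Ldhb were higher with GPI in 5 of 5 embryos, a pattern of 15.4% of all tested genes. No member was lower in 5 of 5, a pattern of 15.2% of them. In such bulk samples, fewer cells of a type and less RNA per cell cannot be told apart.

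The count of falls depended on which embryos were used and on the pairing of gonads. With M2, M3, M4 or M5 left out in place of M1, edgeR called 7, 5, 5 and 6 members lower, and 5 higher each time. Over all tested genes the calls were fewer as well, with 1568, 1290, 1286 and 1466 genes lower, beside 1654 with all embryos. When the embryo was left out of the design, edgeR called 0 members lower, although 4 had an unadjusted p under 0.05, and 5 higher. The adjusted p of the 10 genes then ran from 0.0709 for Pfkp to 0.465 for Tpi1. With the embryo in the design, DESeq2 called 6 members lower, without Gpi1, Tpi1, Pgk1 and Eno1, and limma-voom 8, without Tpi1 and Eno1, and both called 5 higher. Over all tested genes, edgeR called 3198 in either direction, 3108 without the embryo in the design, DESeq2 3187 and limma-voom 3287.

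**Figure D2:**
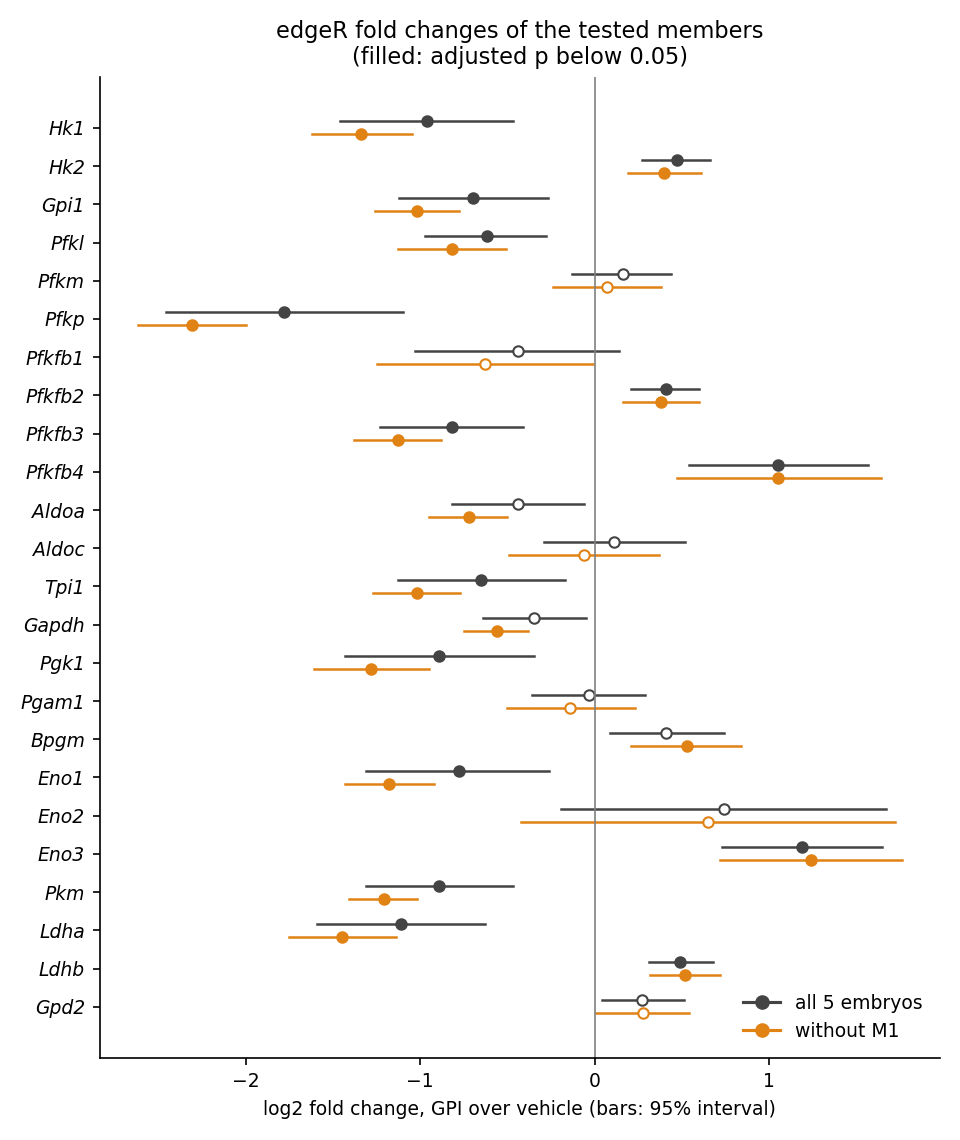
Points are edgeR log2 fold changes of GPI over vehicle for the 24 tested members, with bars for the 95% interval, from all 5 embryos (dark grey) and without M1 (orange). Filled points have an adjusted p below 0.05. Intervals of genes such as Pfkp, from -2.46 to -1.10 with all embryos, were narrower without M1.

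Hexokinase traps glucose in the cell as glucose 6-phosphate, and its main isozymes moved in opposite directions. Hk1, the isozyme found in most tissues, stood at 30.8, 33.9, 25.0, 28.9 and 34.3 CPM in the vehicle gonads of M1 to M5. It stood at 41.6, 11.98, 11.96, 10.9 and 13.7 CPM with GPI. The GPI gonads of M2 to M5 lay below every vehicle gonad, and that of M1 lay above them all. The fall was -0.96 ± 0.23 on the log2 scale (SE, n = 5 embryos, edgeR adjusted p = 0.00763), and -1.34 ± 0.13 without M1. Hk2, the isozyme of muscle and of many growing cells, stood at 89.2, 109, 76.8, 86.3 and 103 CPM with vehicle and at 142, 120.1, 116, 134 and 127 CPM with GPI. The groups did not overlap, and M1 had the highest GPI value. Hk2 rose by a log2 fold change of 0.47 ± 0.09 (edgeR adjusted p = 0.0017), and 0.40 ± 0.10 without M1, and was higher in 5 of 5 embryos.

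Per kilobase of the longest transcript, Hk2 stood at 16.8 CPM per kb in vehicle gonads and Hk1 at 7.15, an order that turned when median transcript lengths were used. As a share of the hexokinase level per kb, Hk2 took 68.9, 71.4, 69.6, 69.5 and 69.7% in the vehicle gonads of M1 to M5. With GPI it took 72.3, 88.5, 87.8, 90.1 and 87.8%. The share was higher with GPI in 5 of 5 embryos, by 15.5 percentage points on average (SD 6.90), by 18.52 points without M1 and by 24.04 points with median transcript lengths. The exact two-sided paired permutation test gave p = 0.0625, the smallest that 5 pairs allow, so no share could pass 0.05. With the longest transcripts, the summed hexokinase level was 24.1 ± 3.15 CPM per kb with vehicle and 27.5 ± 4.71 with GPI (SD, n = 5). This difference lay within the spread. Median lengths are 581 bases for Hk1 and 2792 for Hk2, beside 4278 and 5513 for the longest. Hk1, which fell, thus weighs more with median lengths, and the direction of the summed change rests on the lengths used. Hk3 and Hkdc1 did not pass the filter on low counts: Hk3 ran from 0 to 0.725 CPM and had 35 counts in all, and Hkdc1 had 1 count in all.

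Gpi1 interconverts glucose 6-phosphate and fructose 6-phosphate and has no isozyme among the members. It stood at 113, 77.97, 72.2, 79.96 and 87.1 CPM with vehicle in M1 to M5, and at 161, 45.6, 41.0, 37.5 and 34.3 CPM with GPI. The M1 gonad was the highest of each group, and the other 4 GPI gonads lay below every vehicle gonad. Gpi1 fell by a log2 fold change of -0.70 ± 0.20 (edgeR adjusted p = 0.0198), and by -1.02 ± 0.11 without M1. The call was lost when M2, M3, M4 or M5 was left out, with adjusted p from 0.0719 to 0.0962, and in DESeq2 with all embryos (0.0817).

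Phosphofructokinase-1 commits sugar to glycolysis, and here the platelet-type subunit Pfkp showed the largest fall of any tested member. In M1 to M5, Pfkp stood at 65.9, 60.1, 45.6, 49.9 and 55.5 CPM with vehicle and at 72.9, 15.2, 8.41, 7.17 and 13.4 CPM with GPI. The values of M2 to M5 with GPI were far under the vehicle range, and the M1 value was above it. Pfkp fell 3.44-fold, a log2 fold change of -1.78 ± 0.31 (edgeR adjusted p = 0.000921), and of -2.31 ± 0.15 without M1. Pfkl, the liver-type subunit, stood at 55.0, 35.4, 36.2, 36.7 and 39.6 CPM with vehicle and at 57.3, 28.3, 15.1, 18.3 and 24.9 CPM with GPI. M1 was the highest in each group, and M2 to M5 with GPI lay below all vehicle gonads. Its log2 fold change was -0.62 ± 0.16 (edgeR adjusted p = 0.0117), -0.82 ± 0.15 without M1, and not past the threshold without M3 or M4 (adjusted p from 0.0191 to 0.0633 over M2 to M5). Pfkm, the muscle-type subunit, stood between 14.04 and 16.8 CPM with vehicle and between 13.7 and 19.6 CPM with GPI. These ranges overlapped, and its log2 fold change was 0.16 ± 0.13 (edgeR adjusted p = 0.452), and 0.07 ± 0.15 without M1.

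The makeup of phosphofructokinase-1 differed accordingly. Pfkp took 44.6, 50.2, 41.7, 43.6 and 44.9% of the level per kb in vehicle gonads of M1 to M5, and 44.2, 21.2, 18.7, 13.3 and 19.9% with GPI. Pfkm took 18.5 ± 3.12% with vehicle and 36.8 ± 12.2% with GPI (SD, n = 5). The Pfkp share was lower in 5 of 5 embryos, though by under 1 point in M1 (exact paired permutation p = 0.0625). With median transcript lengths it was lower in 4 of 5 (exact paired permutation p = 0.125). The summed level of the 3 subunits was 35.6, 28.9, 26.4, 27.6 and 29.8 CPM per kb with vehicle. It was 39.8, 17.3, 10.9, 13.01 and 16.2 with GPI, so the step was lower in 4 embryos and higher in M1. Reads were counted without regard to strand, and Pfkp overlaps Pitrm1 while Pfkm overlaps Senp1 on the other strand. Counts in the shared stretches of these pairs cannot be assigned to 1 gene with certainty.

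The 4 bifunctional enzymes that make or remove fructose 2,6-bisphosphate, a strong activator of phosphofructokinase-1, also split. Pfkfb3, the isozyme with the highest ratio of kinase to phosphatase activity, stood at 42.2, 46.2, 34.0, 30.4 and 39.2 CPM with vehicle. With GPI it stood at 52.8, 20.004, 15.4, 16.2 and 17.2 CPM. M1 with GPI was the highest of all 10 gonads, and M2 to M5 with GPI were the lowest 4. Pfkfb3 fell by a log2 fold change of -0.82 ± 0.19 (edgeR adjusted p = 0.0066), and by -1.13 ± 0.12 without M1. Pfkfb2, known as the heart-type enzyme, stood at 39.3, 32.5, 43.2, 38.4 and 48.9 CPM with vehicle and at 53.5, 49.6, 50.8, 52.7 and 59.9 CPM with GPI. The groups did not overlap. Pfkfb2 rose by a log2 fold change of 0.41 ± 0.09 (edgeR adjusted p = 0.00496), in 5 of 5 embryos, and by 0.38 ± 0.10 without M1. It overlaps Yod1 on the other strand.

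Pfkfb4 was far lower, at 2.07, 2.52, 2.63, 2.75 and 2.47 CPM with vehicle and 4.09, 5.00, 6.56, 6.32 and 4.25 CPM with GPI. Every GPI gonad, M1 included, was above every vehicle gonad. The rise was 2.08-fold, a log2 fold change of 1.05 ± 0.24 (edgeR adjusted p = 0.00548), and 1.05 ± 0.27 without M1. Pfkfb1, the liver-type enzyme, ran from 2.70 to 5.90 CPM with vehicle and from 2.04 to 4.63 CPM with GPI, with a log2 fold change of -0.44 ± 0.27 (edgeR adjusted p = 0.28), and -0.63 ± 0.29 without M1. The Pfkfb2 share of the 4 was 45.3 ± 5.10% with vehicle and 60.4 ± 8.36% with GPI (SD, n = 5), and the Pfkfb3 share was 39.8 ± 6.62% and 23.7 ± 10.7%. In M1 the Pfkfb3 share was 44.7% with vehicle and 42.3% with GPI. The summed level of the 4 was 20.1 ± 1.01 and 20.3 ± 3.27 CPM per kb, with log2 ratios of 0.40 in M1 and -0.14, -0.11, -0.02 and -0.14 in M2 to M5.

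**Figure D3:**
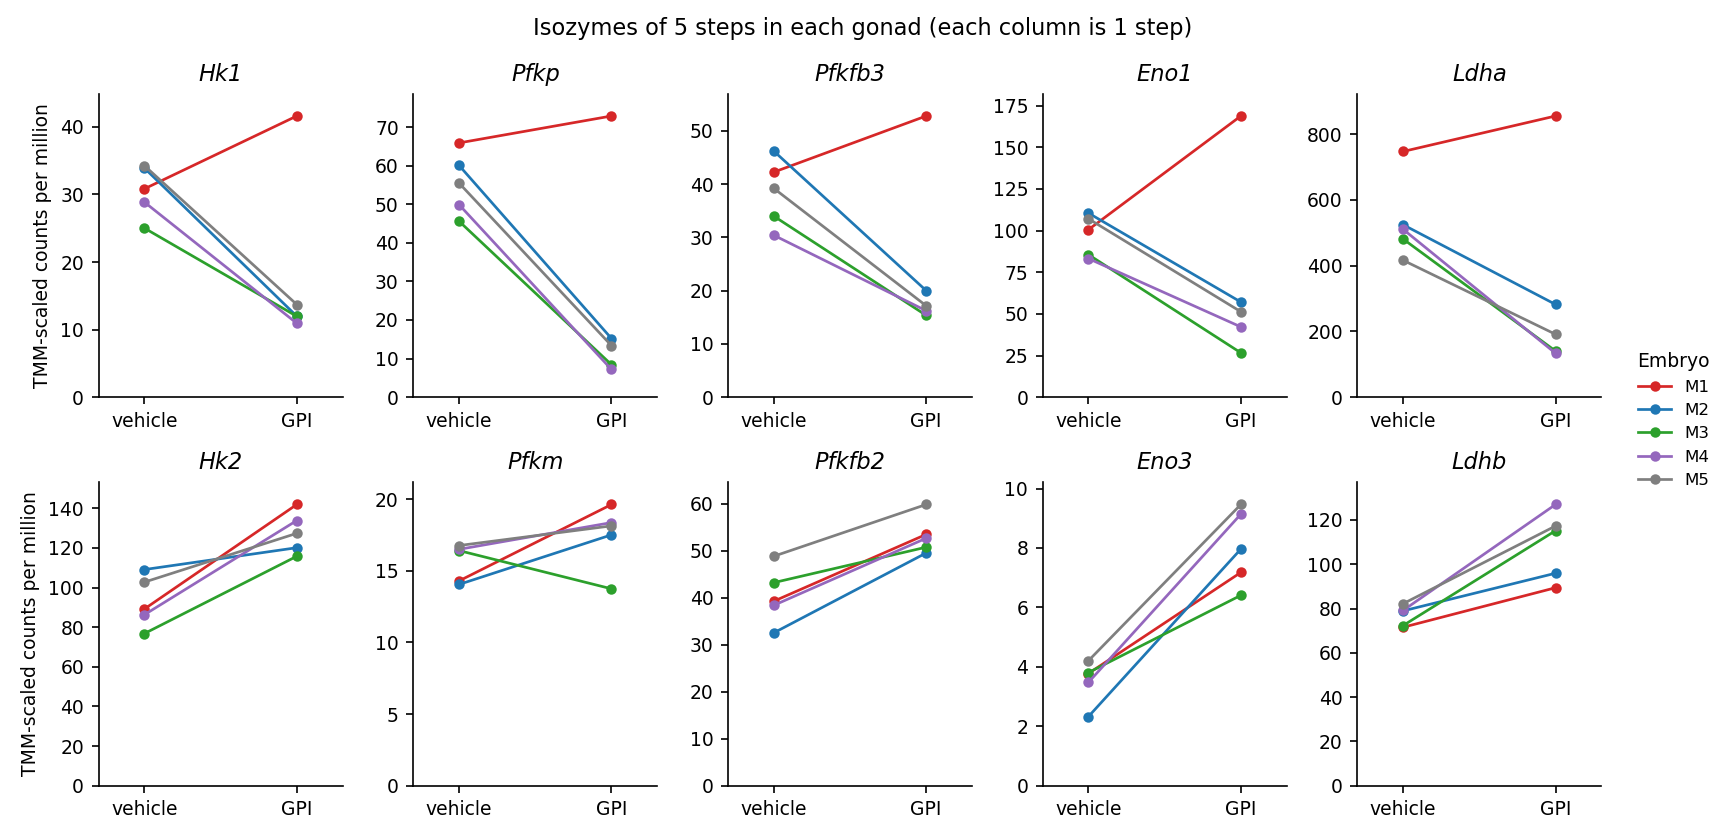
Lines join the vehicle and the GPI gonad of 1 embryo, coloured by embryo, with TMM-scaled CPM on the vertical axis from 0. Each column is 1 step with an isozyme that fell above another of the same step. In the top row M1 (red) rises while M2 to M5 fall, as for Ldha at 855 CPM in the M1 gonad with GPI, and in the bottom row most lines, M1 included, run upward.

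In the middle of the pathway, 6-carbon sugar is split and its energy first recovered. Here Aldoa, Tpi1, Gapdh and Pgk1 followed the M1 pattern, and Aldoc, higher with GPI in M1 and M2, did not. Aldoa, the main aldolase, stood at 113, 130.1, 86.4, 86.3 and 91.9 CPM with vehicle in M1 to M5 and at 173, 61.9, 51.7, 59.7 and 66.1 CPM with GPI. The M2 to M5 values with GPI were all below the vehicle range. With all embryos the log2 fold change of -0.44 ± 0.17 did not pass the threshold (edgeR adjusted p = 0.0891). Without M1 it was -0.72 ± 0.11 and did (adjusted p = 0.00015, the lowest of all alternatives, where the highest was 0.475), as it did with all embryos and no filter on low counts (adjusted p = 0.0135). Aldoc, the aldolase best known from brain, ran from 8.52 to 14.9 CPM with vehicle and from 7.08 to 23.9 CPM with GPI, without a call (log2 fold change 0.11 ± 0.19, edgeR adjusted p = 0.732, and -0.06 ± 0.20 without M1). Aldoa took 94.4 ± 1.28% of the aldolase level per kb with vehicle and 92.1 ± 1.74% with GPI.

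Tpi1, which interconverts the triose phosphates, stood at 66.4, 60.1, 51.0, 53.8 and 64.7 CPM with vehicle and at 110.3, 37.2, 19.8, 27.2 and 32.5 CPM with GPI. M1 with GPI was the highest of the 10 gonads and M2 to M5 with GPI were the lowest. The log2 fold change of -0.65 ± 0.22 was just past the threshold (edgeR adjusted p = 0.0498), was -1.02 ± 0.12 without M1, and was not past it when M2, M3, M4 or M5 was left out (adjusted p from 0.13 to 0.205). With all embryos it was not called by DESeq2 (adjusted p = 0.163) or limma-voom (adjusted p = 0.0934). Gapdh, which yields the first NADH of the pathway, stood at 446, 332, 329, 381 and 376 CPM with vehicle and at 618, 274, 205, 262 and 232 CPM with GPI. The same order held, with M1 above and M2 to M5 below the vehicle range. The log2 fold change was -0.35 ± 0.14 with all embryos (edgeR adjusted p = 0.0866). It was -0.56 ± 0.09 without M1 (adjusted p = 0.000196, the lowest of all alternatives, where the highest was 0.542), and Gapdh was also called with all embryos and no filter on low counts (adjusted p = 0.0146). Gapdh has many near-identical processed copies in the mouse genome, so its counts are uncertain to that extent.

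Pgk1 makes the first ATP of the pathway. It stood at 89.97, 53.7, 62.8, 66.9 and 70.2 CPM with vehicle and at 132, 35.3, 19.6, 22.03 and 30.3 CPM with GPI. M1 was again the highest in each group, and M2 to M5 with GPI were below every vehicle gonad. Pgk1 fell by a log2 fold change of -0.89 ± 0.25 (edgeR adjusted p = 0.019), and by -1.28 ± 0.15 without M1. The call was lost without M3, M4 or M5, with adjusted p from 0.0453 to 0.096 over M2 to M5, and in DESeq2 with all embryos (0.0735).

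The promoters of Pgk1 and Ldha are shown because they held the most ACGTG of the members that fell. Their order of gonads, with M1 highest in each group and M2 to M5 with GPI lowest, was also that of Gpi1, Pfkl, Pfkp and Tpi1, which held 0 matches, and of Gapdh, which held 1. ACGTG, a form of the core of the hypoxia response element, was searched on both strands. So was CACGTG, an E-box that reads the same on both strands and so holds ACGTG once on each. GCGTG, the other form of the core, was not counted, and the Ldha and Ldhb windows below hold it. Windows of 300 bases, from 250 before to 50 after the start site in RefSeq on GRCm38.p6 (mm10), were found for 28 members and not for Gpd1. The capitals mark ACGTG, its complement CACGT, or CACGTG. The Pgk1 window is on the plus strand at chrX:106186850-106187149 and the Ldha window on the plus strand at chr7:46845554-46845853. Ldhb, the partner of Ldha that rose, is shown for contrast, on the minus strand at chr6:142507908-142508207.
Pgk1: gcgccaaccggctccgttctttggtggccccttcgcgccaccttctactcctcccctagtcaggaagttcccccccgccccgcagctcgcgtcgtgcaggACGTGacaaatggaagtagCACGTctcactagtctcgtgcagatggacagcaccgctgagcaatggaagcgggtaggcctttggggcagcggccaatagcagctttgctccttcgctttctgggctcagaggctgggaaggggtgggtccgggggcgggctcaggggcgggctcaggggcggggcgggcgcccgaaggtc
Ldha: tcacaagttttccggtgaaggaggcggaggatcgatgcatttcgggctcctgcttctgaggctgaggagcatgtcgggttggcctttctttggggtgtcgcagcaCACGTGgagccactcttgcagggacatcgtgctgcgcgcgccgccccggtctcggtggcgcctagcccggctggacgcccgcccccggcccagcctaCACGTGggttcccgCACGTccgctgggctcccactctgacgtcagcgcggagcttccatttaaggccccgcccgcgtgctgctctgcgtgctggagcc
Ldhb: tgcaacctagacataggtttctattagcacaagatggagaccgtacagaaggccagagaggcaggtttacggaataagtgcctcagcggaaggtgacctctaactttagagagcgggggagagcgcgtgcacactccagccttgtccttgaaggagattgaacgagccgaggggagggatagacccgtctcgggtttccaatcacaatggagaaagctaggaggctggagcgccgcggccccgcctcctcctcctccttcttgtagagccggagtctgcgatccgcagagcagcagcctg

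Ldha held 5 matches to ACGTG, of which 4 belong to its 2 CACGTG sites, and Pgk1 held 2, at positions -150 and -131 from the start. Ldhb held 0. Pfkm held 3 matches, Hk2 2, and Hk3, Pfkfb3, Aldoc, Gapdh and Pgam1 1 each. ACGTG was thus present in 9 of 28 member windows (32.1%), in 21.2% of the 18204 windows of all genes and in 25.4% of those of tested genes. CACGTG was present in 2 member windows (7.14%) and in 8.19% of all windows. At least 5 matches, as in Ldha, were found in 0.247% of all windows. Of the 12 members that fell without M1, 4 held ACGTG, and of the 6 that rose without M1, 1 did. The window of Pfkfb2 lay 13205 bases from the start of its entry in the count table and that of Gapdh 694 bases. A match is a description of letters and not of binding.

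Neither phosphoglycerate mutase nor bisphosphoglycerate mutase was called with all embryos and the filter on low counts. Pgam1, which shifts the phosphate of 3-phosphoglycerate, ran from 10.97 to 18.2 CPM with vehicle and from 8.64 to 22.3 CPM with GPI, with a log2 fold change of -0.03 ± 0.15 (edgeR adjusted p = 0.904), and -0.14 ± 0.17 without M1. Its muscle isozyme Pgam2 did not pass the filter and had 71 counts in all. Bpgm, which makes 2,3-bisphosphoglycerate and is best known from red cells, stood at 17.5, 9.78, 16.7, 19.2 and 16.1 CPM with vehicle and at 16.2, 19.5, 19.3, 27.2 and 22.7 CPM with GPI. It was higher with GPI in M2 to M5 and lower in M1, the reverse of the common pattern, and the groups overlapped. Its log2 fold change was 0.41 ± 0.15 with all embryos (edgeR adjusted p = 0.063) and 0.53 ± 0.15 without M1 (adjusted p = 0.0188, the lowest of all alternatives, where the highest was 0.183). With all embryos and no filter on low counts it was called too (adjusted p = 0.0456).

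Enolase makes phosphoenolpyruvate, and its isozymes moved in opposite directions as those of hexokinase did. Eno1, the isozyme of most embryonic tissues, stood at 101, 111, 85.6, 83.2 and 107 CPM with vehicle and at 169, 57.1, 26.6, 42.2 and 51.3 CPM with GPI. Only M1 with GPI was above the vehicle range, and the other GPI gonads were below it. The log2 fold change was -0.78 ± 0.24 (edgeR adjusted p = 0.0313) and -1.18 ± 0.12 without M1. The call was lost when M2, M3, M4 or M5 was left out (adjusted p from 0.101 to 0.147), and with all embryos in DESeq2 (0.122) and limma-voom (0.0501). Eno3, the muscle isozyme, stood at 3.78, 2.33, 3.81, 3.48 and 4.21 CPM with vehicle and at 7.18, 7.96, 6.41, 9.14 and 9.46 CPM with GPI. Every GPI gonad was above every vehicle gonad. Eno3 rose 2.29-fold, a log2 fold change of 1.19 ± 0.21 (edgeR adjusted p = 0.000997), and 1.24 ± 0.24 without M1.

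The Eno3 share of the enolase level per kb was 4.58, 2.65, 5.32, 5.06 and 4.80% with vehicle and 5.14, 15.02, 22.9, 21.0 and 18.9% with GPI. M1 with GPI lay inside the vehicle range and M2 to M5 lay well above it. Eno2, the neuronal isozyme, stayed low, from 0.194 to 2.99 CPM with vehicle and from 1.68 to 3.73 CPM with GPI, and was not called (log2 fold change 0.74 ± 0.43, edgeR adjusted p = 0.253, and 0.65 ± 0.50 without M1). Eno1b, a nearly identical intronless copy of Eno1, had 21.7 to 60.2 CPM with vehicle and 8.18 to 46.9 CPM with GPI. Reads of this pair can be split between them, so the level of Eno1 is uncertain, while the log2 fold change of Eno1b was -0.93 ± 0.29 (edgeR adjusted p = 0.0311).

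Pyruvate kinase makes the last ATP of the pathway. Pkm stood at 148, 181, 123, 122 and 139 CPM with vehicle and at 191, 72.8, 47.4, 57.9 and 68.0 CPM with GPI. M1 with GPI was the highest of the 10 gonads and M2 to M5 with GPI were the lowest. Pkm fell by a log2 fold change of -0.89 ± 0.19 (edgeR adjusted p = 0.0042), and by -1.21 ± 0.09 without M1. Its spliced forms are counted together as 1 gene. Pklr, the isozyme of liver and red cells, did not pass the filter. It stood at 1.89, 0.097, 2.54, 0.323 and 2.16 CPM with vehicle and at 0.636, 0.329, 0, 0.256 and 0.177 CPM with GPI.

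Lactate dehydrogenase turns pyruvate into lactate and back, and its subunits moved in opposite directions. Ldha (Entrez 16828, chr7:46845804-46855627 on mm10, plus strand), the subunit known for favouring lactate production, was the most abundant member per kb in vehicle gonads, at a mean of 295 CPM per kb. With GPI, the mean of Gapdh was above it, at 224.1 beside 176.5 CPM per kb. In CPM the GPI means were 318.25 for Gapdh and 320.34 for Ldha, so that order rests on the lengths used. Ldha stood at 747, 524, 481, 510.3 and 416 CPM with vehicle and at 855, 282, 140.2, 133 and 191 CPM with GPI. M1 was the highest in each group, and M2 to M5 with GPI were below every vehicle gonad. Ldha fell 2.16-fold, a log2 fold change of -1.11 ± 0.22 (edgeR adjusted p = 0.00251), and -1.45 ± 0.14 without M1. Ldhb (Entrez 16832, chr6:142490249-142507957, minus strand), the subunit of heart and other oxidative tissues, stood at 71.5, 78.9, 72.3, 79.2 and 82.2 CPM with vehicle. With GPI it stood at 89.4, 95.9, 115, 127 and 117 CPM. The groups did not overlap, and M1 was the lowest with GPI. Ldhb rose by a log2 fold change of 0.49 ± 0.08 (edgeR adjusted p = 0.000728) and by 0.52 ± 0.09 without M1.

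The level of Ldha over that of Ldhb per kb was 7.50, 4.77, 4.78, 4.63 and 3.64 in the vehicle gonads of M1 to M5. With GPI it was 6.87, 2.11, 0.875, 0.755 and 1.17. These ratios use the longest transcript of each gene. In CPM, or with median transcript lengths, Ldha was above Ldhb in all 10 gonads. As a share, Ldha took 82.9 ± 3.50% with vehicle and 59.8 ± 18.1% with GPI (SD, n = 5), lower in 5 of 5 embryos (exact paired permutation p = 0.0625). In M1 the share was 88.2% with vehicle and 87.3% with GPI. The summed level of both subunits was 354 ± 66.6 CPM per kb with vehicle and 260.0 ± 158 with GPI, and 190.2 ± 28.9 over the 4 GPI gonads other than M1.

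**Figure D4:**
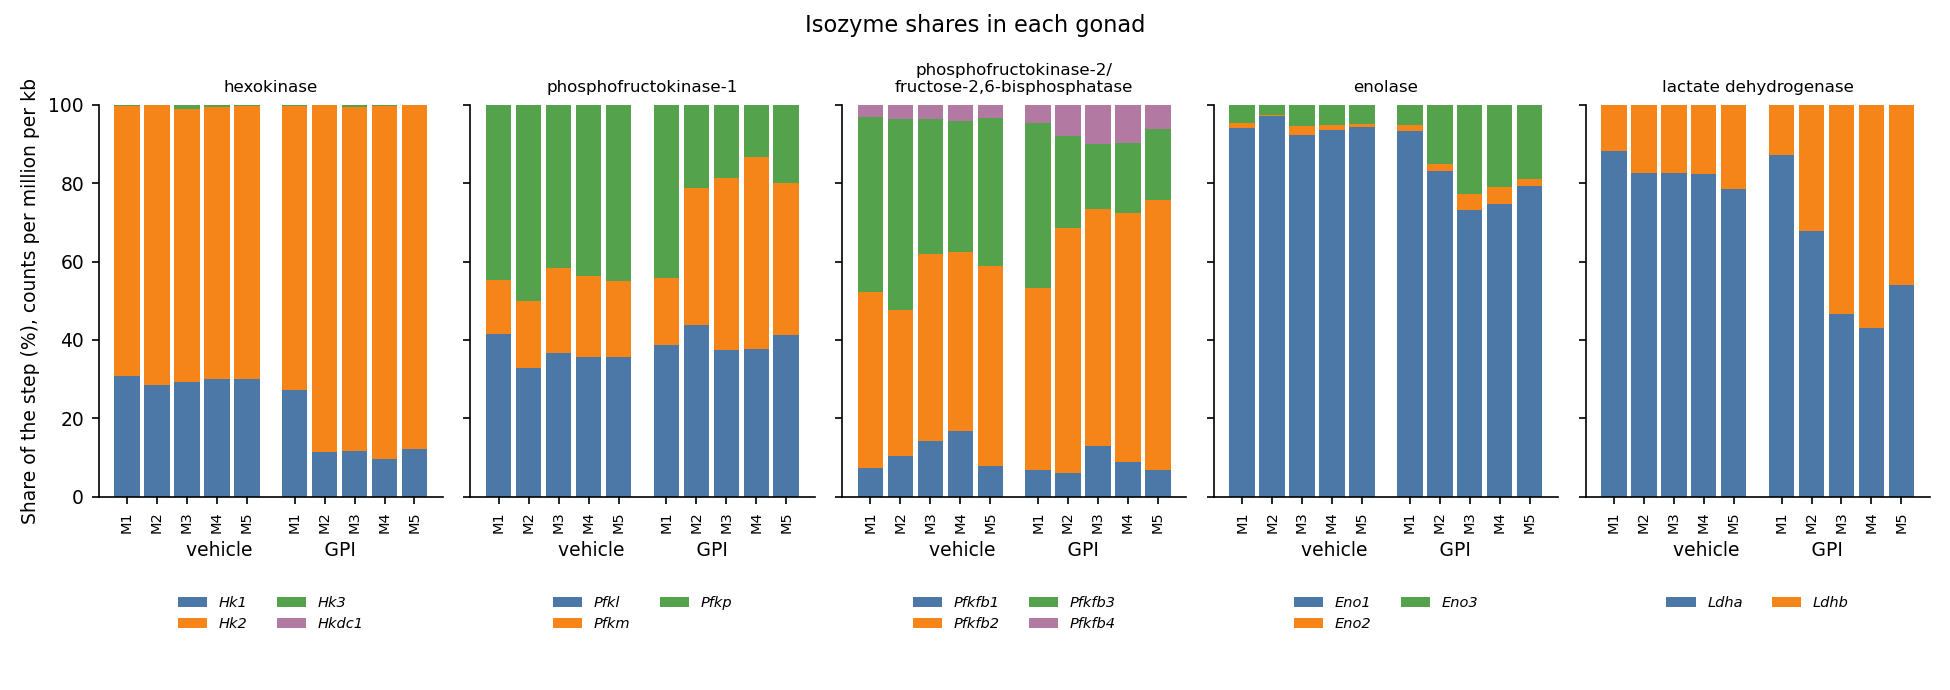
Stacked bars give the share of each isozyme in the level of its step, in CPM per kb, for the vehicle and GPI gonads of M1 to M5. The M1 bar with GPI resembles the vehicle bars, as for Ldha at 87.3%, while M2 to M5 with GPI hold more Hk2, Pfkm, Pfkfb2, Eno3 and Ldhb.

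Glycerol-3-phosphate dehydrogenase links glycolysis to lipid synthesis and carries electrons from NADH to the respiratory chain. Gpd2, the mitochondrial enzyme, had 22.8 ± 3.88 CPM with vehicle and 27.5 ± 3.32 CPM with GPI (SD, n = 5), with a log2 fold change of 0.27 ± 0.11 (edgeR adjusted p = 0.0939), and 0.28 ± 0.12 without M1. Gpd1, the cytosolic enzyme, did not pass the filter and had 108 counts in all. In all, 9 steps with at least 2 members were compared by the share of their most abundant isozyme. The exact paired permutation p was 0.0625 for 6 of them, 0.125 for Gpd2, 0.25 for Pkm and 0.375 for Pgam1.

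The 12 other isozymes of these steps that are not members gave no call in edgeR, with 5 of them tested and none at an unadjusted p under 0.05. Adpgk, a glucokinase that uses ADP, was the most abundant per kb, with a log2 fold change of 0.13 ± 0.16 (edgeR adjusted p = 0.63). Eno4 and Ldhd had log2 fold changes of 0.34 ± 0.49 and 0.29 ± 0.42. Pgk2 and Aldoart2, isozymes of the male germ line, had 0 counts in all 10 libraries.

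Of 8 genes of glucose and lactate transport, 1 fell and 3 rose with all embryos, beside 11.9% and 11.1% of all tested genes, and 4 fell and 3 rose without M1. Slc2a1, the widespread glucose transporter, stood at 226, 161, 138, 145 and 169 CPM with vehicle and at 311, 76.9, 61.1, 52.3 and 69.7 CPM with GPI, with M1 highest in each group and M2 to M5 with GPI lowest, as for Ldha and Pgk1. Its log2 fold change was -0.91 ± 0.21 (edgeR adjusted p = 0.00599), -1.26 ± 0.09 without M1, and not past the threshold with the embryo left out of the design (adjusted p = 0.348). Slc16a1, a lactate carrier, stood at 18.0, 24.2, 23.1, 24.9 and 25.8 CPM with vehicle and at 35.1, 31.8, 34.1, 46.1 and 35.6 CPM with GPI, with no overlap and a log2 fold change of 0.65 ± 0.11 (edgeR adjusted p = 0.000856). Slc16a7, a monocarboxylate carrier with high affinity, and Slc2a4, the glucose transporter that answers to insulin, rose by log2 fold changes of 1.34 ± 0.29 and 0.97 ± 0.24 (edgeR adjusted p = 0.00386 and 0.00843). Bsg, the chaperone of the lactate carriers and the most abundant of the list per kb, had a log2 fold change of -0.45 ± 0.16 (edgeR adjusted p = 0.0582) and was called lower without M1, at -0.72 ± 0.08.

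Of 14 genes that set the fate of pyruvate, 2 fell and 5 rose with all embryos, beside 11.9% and 11.1% of all tested genes, and 2 fell and 3 rose without M1. Pdk1, a kinase that switches off pyruvate dehydrogenase, stood at 87.1, 67.0, 59.4, 61.0 and 78.5 CPM with vehicle and at 125, 27.4, 16.98, 19.6 and 24.7 CPM with GPI. It fell by a log2 fold change of -1.17 ± 0.26 (edgeR adjusted p = 0.0053), with M1 again on the other side, and by -1.61 ± 0.11 without M1. Pdk4, of the same family, fell by -0.83 ± 0.27 (edgeR adjusted p = 0.0401). Pcx, which turns pyruvate into oxaloacetate, rose by a log2 fold change of 1.28 ± 0.23 in 5 of 5 embryos (edgeR adjusted p = 0.00114). Dld, the most abundant of the list per kb and a subunit of the pyruvate dehydrogenase complex, rose by 0.25 ± 0.06, and Pdhx, Pdp1 and Pdp2 rose as well, by 0.33 ± 0.11, 0.36 ± 0.11 and 0.84 ± 0.26. Without M1, Pdhx and Pdp1 were not called. With the embryo left out of the design, edgeR did not call Pdk1, Pdk4 or Pdp2 (adjusted p = 0.257, 0.18 and 0.0517). Of 6 genes of gluconeogenesis and its brakes, 4 were tested, and edgeR called none, with 1 at an unadjusted p under 0.05. The smallest p among them were those of Pck1, G6pc3 and Tigar, with log2 fold changes of 0.95 ± 0.40, 0.24 ± 0.16 and 0.23 ± 0.21. Without M1, that of Pck1 was 0.61 ± 0.44 (edgeR unadjusted p = 0.184).

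Targets of the hypoxia-inducible factor HIF outside glycolysis were counted because several members are known targets too. Of 15 such genes, 11 fell and 0 rose with all embryos, beside 11.9% and 11.1% of all tested genes, and 13 fell without M1. With the embryo left out of the design, edgeR called 3 of them lower, Adm, Ddit4 and Mxi1, and Vegfa and Egln3 had adjusted p of 0.216 and 0.0617. Their median log2 ratio was 0.46 in M1, and -1.16, -1.25, -0.73 and -1.48 in M2 to M5. Vegfa, the endothelial growth factor and the most abundant of the list per kb, stood at 404, 418, 345, 300.2 and 396 CPM with vehicle and at 612, 180.0, 123, 115 and 140 CPM with GPI. M1 with GPI was the highest of the 10 gonads and M2 to M5 with GPI were the lowest. Egln3, a prolyl hydroxylase that marks HIF, fell by a log2 fold change of -2.27 ± 0.44, Adm by -1.79 ± 0.33 and Mxi1 by -0.59 ± 0.11 (edgeR adjusted p = 0.00181, 0.00137 and 0.00101). Without M1 these were -3.02 ± 0.15, -2.31 ± 0.18 and -0.73 ± 0.09, and Vegfa went from -1.02 ± 0.24 to -1.41 ± 0.08. ACGTG was present in 10 of the 14 windows found for this list, beside 21.2% of all windows and 25.4% of those of tested genes. The genes were listed as known HIF targets, so a high share can come with that choice.

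Calls made with 1 embryo left out were also set against the direction in that embryo. Of the 12 members called lower without M1, 0 were lower in M1, where 88.0% of the 1671 genes called lower over all tested genes were. These 12 are among the 13 members named above as higher in M1 and lower in M2 to M5, so this is not a separate check. Of the 6 members called higher without M1, 5 were higher in M1, where 86.3% of the 1391 genes called higher were. When M2, M3, M4 or M5 was the embryo left out, 7, 5, 5 and 6 members were called lower, and the same number were lower in that embryo, beside 89.7, 98.1, 97.6 and 94.6% of all genes called lower. Of the 13 HIF targets called lower without M1, 3 were lower in M1, while 10 of 10 endothelial and 7 of 7 germ cell markers were.

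**Figure D5:**
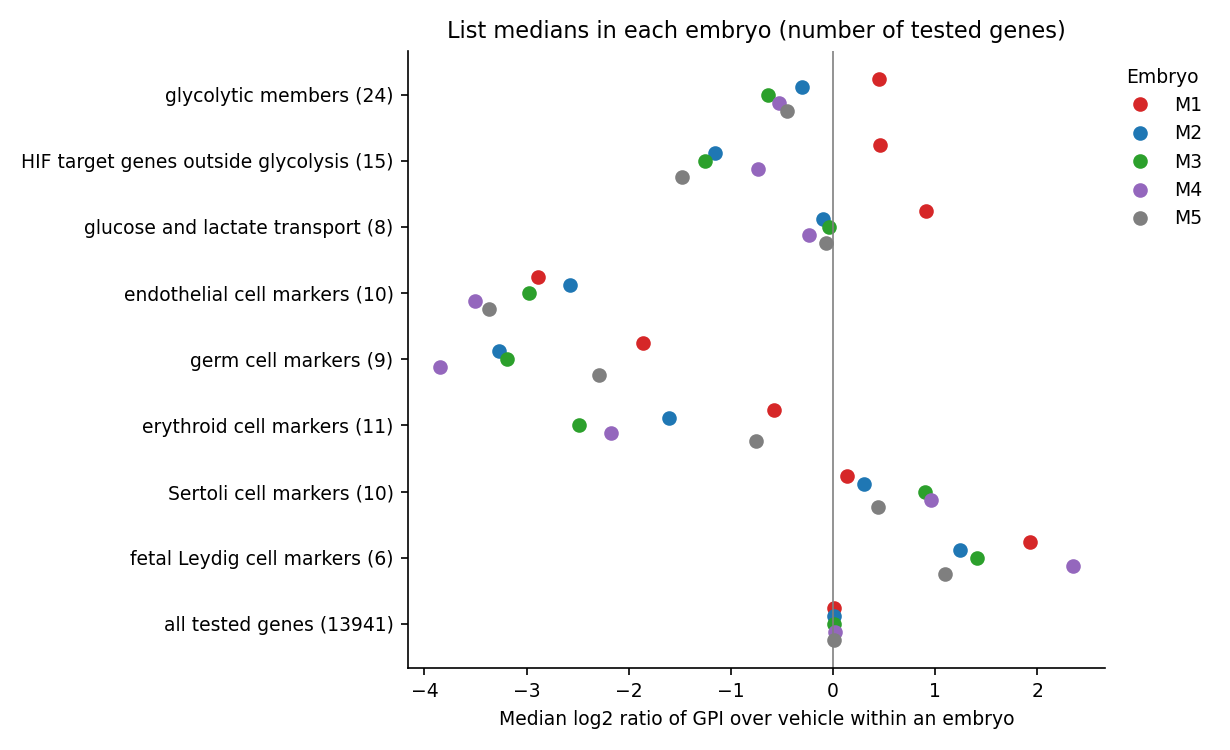
Each point is 1 embryo and gives the median log2 ratio between its GPI and vehicle gonads, over the tested genes of each list. M1 (red) lies to the right of 0 for the glycolytic members, at 0.45, and for the HIF targets, at 0.46, and lies on the same side as the other embryos for the endothelial, germ, erythroid and Leydig cell markers.

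Markers of cell types moved with treatment beside the members, and their part in the members' results was not tested. For all cell type lists, calls stand beside 11.9% of all tested genes that fell and 11.1% that rose. All 10 endothelial markers fell, in M1 as in the others, with a summed level of 659, 683, 633, 722 and 648 CPM with vehicle and 79.4, 93.1, 66.1, 51.8 and 66.2 CPM with GPI. Cdh5, the most abundant per kb, Flt1 and Pecam1 fell by log2 fold changes of -3.63 ± 0.12, -5.18 ± 0.18 and -4.16 ± 0.15. Of 9 tested germ cell markers 7 fell, with a summed level of 137, 237, 158, 206 and 105 CPM with vehicle and 35.7, 37.1, 24.2, 14.5 and 31.3 CPM with GPI. Dppa3, the most abundant per kb, Dazl and Sall4 fell by log2 fold changes of -5.20 ± 0.36, -4.62 ± 0.34 and -4.89 ± 0.43. Without M1 these were -5.88 ± 0.27, -5.17 ± 0.28 and -4.81 ± 0.48.

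Blood cell markers were lower as well. Of 11 tested erythroid markers 9 fell, and their summed level was 176, 239, 445, 418 and 353 CPM with vehicle and 154, 84.0, 78.7, 88.3 and 206 CPM with GPI. Hbb-y was the most abundant per kb, and Hbb-bt and Hbb-bs fell by log2 fold changes of -3.84 ± 0.31 and -4.13 ± 0.34. Of 10 macrophage markers 9 fell (Csf1r -2.22 ± 0.21, C1qb -1.91 ± 0.28 and the most abundant, Lyz2, -1.65 ± 0.24). All 4 tested neutrophil markers fell, among them S100a9, S100a8 and Ngp, and 1 of 3 megakaryocyte markers did, Pf4.

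Markers of fetal Leydig and Sertoli cells were higher with GPI on the whole. All 6 tested fetal Leydig cell markers rose, with a summed level of 147, 273, 377, 203 and 491 CPM with vehicle and 894, 922, 1409, 1614 and 1180.0 CPM with GPI, while Insl3 stayed below 1 CPM in all gonads. Cyp17a1, Fdx1 and Cyp11a1 rose by log2 fold changes of 3.90 ± 0.29, 1.41 ± 0.13 and 2.90 ± 0.27, and Hsd3b1, the most abundant per kb, by 1.75 ± 0.20. Of 10 Sertoli cell markers 7 rose and 0 fell, with a summed level of 273, 425, 312, 408 and 437 CPM with vehicle and 317, 573, 585, 751 and 568 CPM with GPI. Sox8, Sox9 and Dhh rose by 1.43 ± 0.16, 0.59 ± 0.09 and 0.92 ± 0.15, and Aard, the most abundant per kb, by 0.54 ± 0.12. With the embryo left out of the design, the calls of Aard and Dmrt1 were lost (edgeR adjusted p = 0.0929 and 0.0976). The Sertoli sum was lowest in M1 within each treatment, and in M1 5 of the 10 markers were higher with GPI and 5 lower.

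The other lists were mixed. Among interstitial progenitor markers, Tcf21 and Col1a1, the most abundant, fell and Pdgfra rose. Among pre-granulosa markers, Wnt4 fell and Bmp2 rose, of 5 tested, and Bmp2 was not called with the embryo left out of the design (edgeR adjusted p = 0.0574). Of 4 tested coelomic epithelium markers none was called by edgeR. Of 3 tested mesonephric markers Emx2, the most abundant, fell. Cdh16, below the filter, stood at 9.17 CPM in the M1 gonad with vehicle and at 3.90 CPM or less in the other 9, and Pax2 at 2.37 CPM or less in all 10. Of 4 tested muscle markers, Ttn rose, by a log2 fold change of 1.14 ± 0.13, and Acta1 and Myog, below the filter, were under 1 CPM in all 10 gonads.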

How the data were processed

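RNA of 10 cultured testes was measured, 1 vehicle and 1 GPI gonad from each of 5 embryos. The authors aligned the reads with STAR 2.5 on mm10, ran featureCounts (Subread 1.5.0-p1) unstranded, and deposited raw counts for 24470 entries, used here as deposited. Depth ran from 10203679 to 15635322 counts per library with a median of 11580179, and TMM factors from 0.9511 to 1.0389. No pair of libraries of the same treatment held repeated counts, and vehicle libraries were not compared with GPI libraries in this way.

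Genes were filtered with filterByExpr (minimum count 10, minimum total 15), which kept 13941. They were tested with the quasi-likelihood test of edgeR 4.0.16 with treatment and embryo in the design, in R 4.3.3, and called at an FDR of 0.05 over all tested genes. Levels are TMM-scaled CPM, and per-embryo log2 ratios used a prior count of 2. Shares of isozymes used CPM per kilobase of the longest protein-coding transcript in GENCODE M21. They were compared by an exact two-sided permutation over 32 sign flips of the 5 pairs. That test cannot give a p below 0.0625, so none of the 9 steps could pass 0.05. The code was tested on simulated data.

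The pairing was taken from the labels. Correlation of residual levels was 0.155, -0.04, 0.03, 0.082 and 0.073 between the gonads of M1 to M5, with a mean of 0.06 within and -0.015 between embryos, so the counts themselves give little support for or against it.

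Alternatives tried were DESeq2 1.42.0, voom of limma 3.58.1, a design without the embryo, DESeq2 size factors, total counts, other filters on low counts, each embryo left out in turn, and for shares other lengths and unpaired regroupings. Tables and figures were made in Python 3.11.15 with numpy 2.4.6, pandas 2.3.3 and matplotlib 3.10.9. The members and the lists of other genes were chosen with earlier results of these data known. All members are named. Of each list, the most abundant gene per kilobase and the 3 with the smallest p are named, with any gene called alone in its direction, apart from some list genes whose results are not reported here. Of the 193 listed genes, 192 were found. Protein sequences were not at hand, so no identities between isozymes were computed.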

Additional observations from a re-analysis of the deposited data

Results flagged for a closer look

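A total of 66 groups of 5 values were searched for a value far from the other 4 with Dixon's test, 48 of CPM and 18 of shares. By chance about 1 in 20 such groups would hold one, and 14 did. The gonad was M1 with GPI in 13 of them. Its values in CPM, with the nearest other GPI gonad after each, were 41.6 and 13.7 for Hk1, 161 and 45.6 for Gpi1, 72.9 and 15.2 for Pfkp, 52.8 and 20.004 for Pfkfb3, 173 and 66.1 for Aldoa, and 110 and 37.2 for Tpi1. They were 618 and 274 for Gapdh, 132 and 35.3 for Pgk1, 169 and 57.1 for Eno1, 191 and 72.8 for Pkm, and 855 and 282 for Ldha. The share of Hk2 in that gonad was 72.3%, with the nearest other at 87.8%, and the share of Pfkp was 44.2%, with the nearest other at 21.2%. The remaining value was Pfkl in the vehicle gonad of M1, at 55.0 CPM with the nearest other at 39.6. The groups are not independent, since all come from the same 10 libraries.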

How the results depend on the processing

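Members called lower numbered 10 with all 5 embryos paired in edgeR, 6 with DESeq2, and between 5 and 12 when 1 embryo was left out, 12 of them without M1. With all 5 embryos and no filter on low counts they numbered 12 as well, and members called higher 6. Without the replicate block, when gonads were not paired by embryo, 0 members were called lower, while 3108 genes were called in all, beside 3198 with it. The 5 members called higher, Hk2, Pfkfb2, Pfkfb4, Eno3 and Ldhb, were called under every alternative.

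A pair of members changed sign with an embryo left out. The log2 fold change of Aldoc was -0.06 without M1 and -0.005 without M2, in a range up to 0.241, and that of Pgam1 was 0.037 without M3 and 0.068 without M5, in a range down to -0.138. Neither was called in any of these.

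Shares compared without the replicate block, by exact permutation over 252 regroupings, gave smaller p than the paired test. Differences in percentage points, each with the exact permutation p, were 15.49 for Hk2 (p = 0.00794), -21.55 for Pfkp (0.02381), 15.02 for Pfkfb2 (0.02381), -2.3 for Aldoa (0.03968), -13.56 for Eno1 (0.01587) and -23.1 for Ldha (0.03968). The other 3 steps had 0.07937, 0.13492 and 0.20635, and no share passed 0.05 once the 9 steps were adjusted for.

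Limits are the 5 embryos, mixed cells in each library, and counts without strand. Of the embryos, M1 alone was higher with GPI for 13 of the 24 tested members. Protein, enzyme activity and glycogen were not measured here. Why M1 differed was not tested.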
